A study of Homo sapiens with 32 samples.

Results

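IGFBP4 and IGFBP5, the genes of a pair of secreted insulin-like growth factor binding proteins, were followed in tamoxifen-treated ZR-75-1 xenografts over 14 days. They were taken as every probe that the study's list of changed genes names IGFBP4 (2 probes, 273587_A and 147469_B) or IGFBP5 (3 probes, 324253_A, 297980_A and 45542_A), which makes 5 of the 9912 probes on the arrays. The list names 333 probes in all, and the other 9579 probes have no name here. IGFBP4 was below the control pool in all 16 treated tumors and IGFBP5 was above it in 15 of 16. IGFBP4 was already low at day 1, by 4.73-fold on average, and was 5.58-fold below the pool at day 14. IGFBP5 was 1.47-fold above the pool at day 1 and 5.88-fold above it at day 14. In the reported tests, no difference between days passed after adjustment for either gene.

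Insulin-like growth factors stimulate the growth and survival of breast cancer cells through the receptor IGF1R and the docking protein IRS1, and most of the factor outside cells is held by binding proteins. IGFBP4 mainly keeps the factors from their receptor and is cleared by the protease PAPPA, which frees the factor again. IGFBP5 binds extracellular matrix as well as the factors, can hold back or enhance their action, and is known for its strong rise in the mammary gland as it involutes after lactation. In breast cancer cells that carry the estrogen receptor, IGFBP4 is known as an estrogen-induced gene and IGFBP5 as an estrogen-repressed gene, and fibroblasts make both proteins too.

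ZR-75-1, a breast cancer line of human origin with estrogen receptor, was grown here as tumors in the flanks of female nu/nu mice, which lack T cells but keep other host cells. Every mouse carried a slow-release pellet of 17β-estradiol (E2), the controls included, and the treated ones had a further pellet that gave off 2.5 mg of tamoxifen in 60 days. Treated tumors were taken at day 1 (4 tumors of 2 mice), day 2 (2 tumors of 2 mice), day 4 (4 tumors of 3 mice), day 7 (4 tumors of 3 mice) and day 14 (2 tumors of 2 mice), so that 4 of the 12 mice gave a tumor from each flank. Each tumor was compared, on 2-colour cDNA arrays with the dyes in both orientations (32 arrays), with 1 pool of RNA from E2-only xenografts collected up to day 4, which all arrays share. The ages of the mice are not given in the sources used here, and all tumors come from passages of 1 cell line.

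Values are log2 ratios of a treated tumor over the control pool, averaged over both orientations, so that 0 is the level of the pool and -1 means that the tumor held 1 part of RNA for every 2 parts in the pool. The direction is the likely one. It follows the authors' value table. Of 35 listed estrogen-induced genes 19 were measured, and 19 of 19 lay below 0 at days 2 to 14 (18 of 19 at day 1). Only genes in the study's list of changed genes could be measured, and the estrogen-induced list was chosen with earlier results of these data known. These genes are thus no independent test of the sign. If the scanner channels are numbered as in the sample labels, every sign turns, and the opposite directions of IGFBP4 and IGFBP5 stay. The pool holds no tumor of days 7 and 14, and for these days tamoxifen and the time of growth cannot be told apart. In bulk tumors, fewer cells of a type and less RNA per cell cannot be told apart either. The median signal over local background of an array was between 2.77 and 7.92. The titles number 5 replicates at day 4, but replicate 3 (a forward array) and replicate 4 (a dye swap) carry the same tumor in their RNA label. They were taken as 1 tumor, tumor 3, and replicate 5 is tumor 4 here. The dye swap of replicate 4 was left out, since its scanned ratios followed the forward array of tumor 2 (r = 0.980 across probes, which are not replicates) more closely than the forward array of the tumor in its RNA label (r = 0.614). Tumor 3 of day 4 is thus measured in the forward orientation alone, as it would also be if the titles' numbers marked separate tumors. Of 16 listed markers of luminal epithelium 4 were measured. MUC1, CD24, CLDN4 and ERBB3 had a median signal over background of 65.1, 10.6, 80.9 and 6.19 in the tumor channel of 31 arrays. The lowest single value among these was 2.47. The measured fibroblast and matrix markers MGP, LGALS1, FN1 and MYLK had medians of 344, 32.5, 13.7 and 3.96. Signal thus did not set these cell types apart, and the labelled cell type could not be checked by it. The line is human and the host cells are of the mouse, so that the cells behind a marker's signal are not known.

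IGFBP4 lies on chromosome 17 (40443450 to 40457725, GRCh38.p14) and IGFBP5 on chromosome 2 (216672105 to 216695549). The 250 bases before each gene's start are shown because the transcripts moved in opposite directions, and because hormone-dependent genes are often searched for estrogen response elements near the start. The sequences are from RefSeq (GRCh38.p14), at chr17:40443200-40443449 on the plus strand for IGFBP4 and at chr2:216695550-216695799 on the minus strand for IGFBP5, both written 5′ to 3′ along the gene. The capitals mark a TATA-type stretch.
IGFBP4 promoter: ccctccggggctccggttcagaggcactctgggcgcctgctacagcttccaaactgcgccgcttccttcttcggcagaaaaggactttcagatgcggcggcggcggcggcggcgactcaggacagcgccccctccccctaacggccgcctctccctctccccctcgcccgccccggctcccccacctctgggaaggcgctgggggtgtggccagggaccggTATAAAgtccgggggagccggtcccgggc
IGFBP5 promoter: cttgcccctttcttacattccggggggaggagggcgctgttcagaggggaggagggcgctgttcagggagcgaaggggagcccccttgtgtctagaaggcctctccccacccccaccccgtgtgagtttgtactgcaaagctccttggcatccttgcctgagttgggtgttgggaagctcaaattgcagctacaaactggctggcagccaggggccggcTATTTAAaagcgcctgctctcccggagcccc
The IGFBP4 stretch holds TATAAA, which begins 29 bases before the start, and the IGFBP5 stretch holds TATTTAA, which begins 31 bases before it and was searched after the sequence had been seen. On either strand, TATAAA is found in 10.7% of the 35116 human promoter windows of the same length and TATTTAA in 4.17%. Neither window holds the full estrogen response element GGTCANNNTGACC (0.0399% of windows) or its arm GGTCA (32.6% of windows), which overlaps the full element. The GC box GGGCGG (42.6% of windows) is found in the IGFBP4 window only, 83 bases before the start. G and C make up 71.6% of the IGFBP4 window and 61.2% of the IGFBP5 window, against a median of 58.0% over all windows. A match describes these letters and no match says nothing about binding elsewhere.

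IGFBP4 was far below the pool from the first day. By its brighter probe, 273587_A, the log2 ratios of the 4 tumors of day 1 were -2.33, -2.31, -2.21 and -2.11. Those of day 2 were -1.73 and -1.77. At day 4 they were -1.50, -2.28, -0.57 and -2.20, at day 7 -0.36, -3.30, -1.32 and -1.51, and at day 14 -1.74 and -3.21. All 16 values lie below 0, the days overlap except that every tumor of day 1 was lower than both of day 2, and both the shallowest and the deepest value belong to day 7. The day means were -2.24 ± 0.10 (SD, n = 4, adjusted p = 0.0013), -1.75 ± 0.03 (n = 2, adjusted p = 0.0963), -1.64 ± 0.79 (n = 4, adjusted p = 0.0273), -1.62 ± 1.23 (n = 4, adjusted p = 0.0339) and -2.48 ± 1.04 (n = 2, adjusted p = 0.0041) for days 1, 2, 4, 7 and 14, with limma's moderated test against the pool. IGFBP4 was thus called lower on days 1, 4, 7 and 14, where 3.4%, 0.515%, 0.464% and 2.95% of all probes were called lower, and not at day 2, where 0.666% were. By the size of its mean it was the third lowest of 9912 probes at day 1 and the fourth lowest at days 4 and 7. It ranked 3 from the lowest of 9911 at day 2 and 6 of 9908 at day 14. The ranks are a description and count the gene's other probe too. At day 2 both probes had an unadjusted p under 0.05 in limma, as 1415 of 9911 probes did. Both IGFBP4 probes gave the same calls on every day. The test takes 1 spread per probe from the tumors of all days, so that the SD of a day does not set its p. With the tumors of each day alone, limma gave adjusted p of 4.6e-07, 0.0629, 0.0487, 0.180 and 0.0142 for days 1, 2, 4, 7 and 14.

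**Figure D1:**
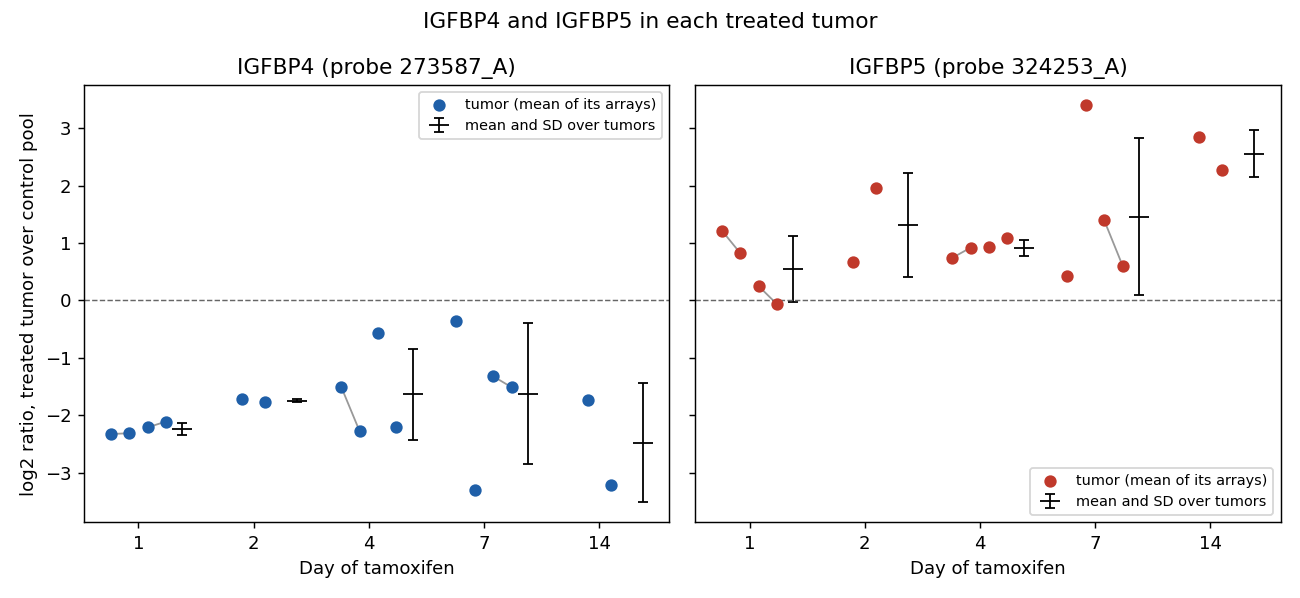
Log2 ratio of treated tumor over control pool (vertical axis) for IGFBP4 (left, blue) and IGFBP5 (right, red) by day of tamoxifen (horizontal axis, not to scale). Points are tumors, grey lines join the flanks of 1 mouse, and bars show the mean ± SD over tumors. All 16 IGFBP4 points lie below 0, and 15 of 16 IGFBP5 points lie above it.

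The probes were chosen by the study on these arrays for their change, so that the calls are no independent evidence of it. With 1 mean per mouse as the unit, the IGFBP4 calls of days 1, 4 and 7 were lost (adjusted p = 0.132, 0.144 and 0.190) and that of day 14 stayed (adjusted p = 0.0156). In that setting 19, 21 and 11 of 9912 probes were called lower at days 1, 4 and 7, and 311 of 9908 at day 14. Day 14 holds 1 tumor per mouse, so that the averaging leaves its values unchanged. Over 32 alternative settings the calls of days 4 and 7 were lost in 6 and 11, and those of days 1 and 14 in 1 each. Without tumor 2 of day 7 the day 7 mean was -1.06 (adjusted p = 0.274), and without tumor 2 of day 14 the day 14 value was -1.74 (adjusted p = 0.279).

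IGFBP5 lay on the other side of the pool. By its brightest probe, 324253_A, the tumors of day 1 had log2 ratios of 1.22, 0.82, 0.25 and -0.07, in the same order of tumors as above. Those of day 2 were 0.67 and 1.95. At day 4 the values were 0.74, 0.92, 0.94 and 1.08, at day 7 0.43, 3.41, 1.40 and 0.60, and at day 14 2.85 and 2.26. Both tumors of day 14 stand above every tumor of days 1, 2 and 4, while tumor 2 of day 7 is the highest of all. The day means were 0.55 ± 0.58 (SD, n = 4, adjusted p = 0.387), 1.31 ± 0.91 (n = 2, adjusted p = 0.214), 0.92 ± 0.14 (n = 4, adjusted p = 0.193), 1.46 ± 1.36 (n = 4, adjusted p = 0.0586) and 2.56 ± 0.41 (n = 2, adjusted p = 0.0034). IGFBP5 was called higher at day 14 by all 3 probes, where 3.32% of all probes were called higher, and by none of them on days 1, 2, 4 and 7, where 2.77%, 0.151%, 0.242% and 0.222% were. At an unadjusted p under 0.05 all 3 probes passed on days 2, 4 and 7, where 1415 of 9911, 1578 of 9912 and 1085 of 9912 probes did. None of the 3 passed at day 1, where 2123 of 9912 probes did. Missing the threshold does not by itself place IGFBP5 at the level of the pool. With the tumors of each day alone, limma gave adjusted p of 0.0601, 0.421, 0.0192, 0.239 and 0.0023 for days 1, 2, 4, 7 and 14. At day 7 the mean of 324253_A was the highest of all 9912 probes, and at day 2 the highest of 9911. The study chose this probe for its change on these arrays, so that its ranks are a description and no support for a rise. Without tumor 2 of day 7 the day 7 mean was 0.81, and day 2 holds 2 tumors. The day 14 call was lost without tumor 1 (2.26, adjusted p = 0.136) and without tumor 2 (2.85, adjusted p = 0.0840) of that day, each of which leaves 1 tumor whose spread is taken from the other days.

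The timing of both genes was compared next. IGFBP4 stood at 2.24 below the pool after 1 day and its means of days 2, 4 and 7 were nearer to it, whereas the IGFBP5 mean was lowest at day 1 and highest at day 14. From the largest to the smallest distance from the pool, the days ran 14, 1, 2, 4 and 7 for IGFBP4 and 14, 7, 2, 4 and 1 for IGFBP5. In the IGFBP5 series the step from day 7 to day 14 was 1.09 ± 0.59 (SE of the fit, adjusted p = 0.713) and that from day 1 to day 2 was 0.76 ± 0.59 (adjusted p = 0.794). In the IGFBP4 series the step from day 7 to day 14 was -0.85 ± 0.58 (adjusted p = 0.790) and that from day 1 to day 2 was 0.50 ± 0.58 (adjusted p = 0.868). No step between neighbouring days was called for any of the 5 probes by limma, where 0% of all probes were called from day 1 to 2, 2 to 4 and 4 to 7 and 0.0807% were called higher from day 7 to 14. At an unadjusted p under 0.05, 1 of the 3 IGFBP5 probes (45542_A) passed from day 7 to day 14, where 751 of 9908 probes did.

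Day 14 was also set against the mean of the 4 earlier days. The IGFBP5 value at day 14 exceeded it by 1.49 ± 0.51 (SE of the fit), which did not pass after adjustment (adjusted p = 0.243 from limma). For IGFBP4 the difference was -0.67 ± 0.51 (adjusted p = 0.656). For this contrast 0.202% of all probes were called higher and 0.141% lower. All 3 IGFBP5 probes and none of the IGFBP4 probes had an unadjusted p under 0.05. It was under 0.05 in 1194 of all 9907 probes. The F-test over the 5 days called 0.101% of all probes and none of the 5 (adjusted p = 0.470 for IGFBP5 and 0.775 for IGFBP4 by their brightest probes).

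With 1 mean per mouse as the independent unit, IGFBP4 showed no trend with the logarithm of the day (r = -0.04, p = 0.895, exact permutation of the days over 12 mice, two-sided, 1663200 arrangements). IGFBP5 had r = 0.57 (exact permutation p = 0.0526, adjusted p = 0.0789). The sum of both log2 ratios, which is above 0 where IGFBP5 had moved further than IGFBP4, had r = 0.61 (exact permutation p = 0.0380, adjusted p = 0.0789). None of these 3 tests passed after adjustment. The sum had a mean of -1.69 ± 0.48 (SD, n = 4) at day 1, -0.44 ± 0.88 (n = 2) at day 2, -0.72 ± 0.76 (n = 4) at day 4, -0.16 ± 0.50 (n = 4) at day 7 and 0.08 ± 1.45 (n = 2) at day 14. The fall of IGFBP4 was the larger of both moves in 10 tumors, among them all 4 of day 1, and the rise of IGFBP5 was the larger in 6.

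The spread between tumors differed by gene and by day. At day 1, IGFBP4 had an SD of 0.10 over 4 tumors, below the median SD of 0.18 over all probes, although it was among the most changed transcripts. At day 7 its SD was 1.23 against a median of 0.17, which puts it above 99.96% of all probes. IGFBP5 was spread widely from the start, with an SD of 0.58 at day 1, was close together at day 4 with 0.14, and had an SD of 1.36 at day 7. The day 4 tightness was less marked by the other IGFBP5 probes, whose SDs were 0.37 and 0.32. Tumor 2 of day 7 gave the lowest IGFBP4 (-3.30) and the highest IGFBP5 (3.41) of the series, and tumor 1 of the same day gave the highest IGFBP4 (-0.36) with an IGFBP5 of 0.43.

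**Figure D2:**
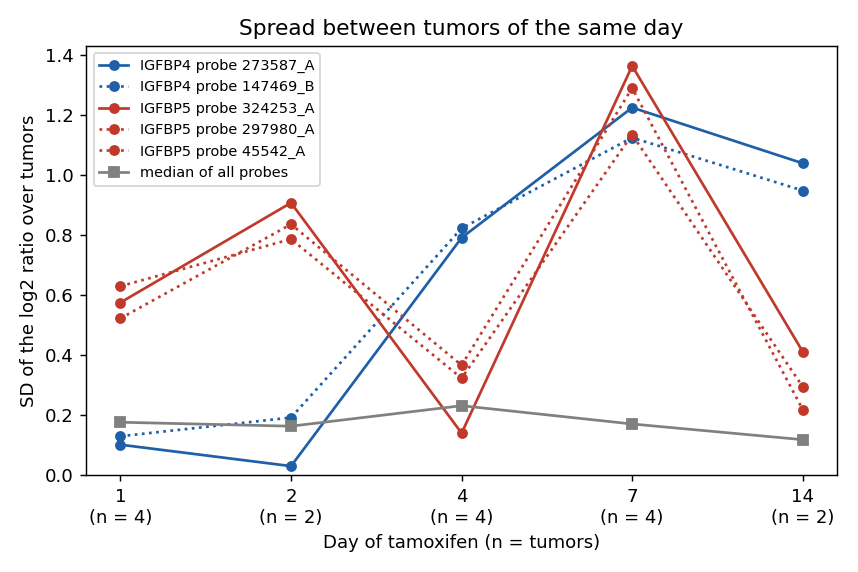
Standard deviation of the log2 ratio over the tumors of a day (vertical axis, from 0) by day (horizontal axis, not to scale, with the number of tumors), for each IGFBP4 probe (blue), each IGFBP5 probe (red) and the median of all probes (grey). Solid lines are the brightest probes. The brightest IGFBP4 probe lies below the median of all probes at days 1 (0.10 against 0.18) and 2 (0.03 against 0.16). The other IGFBP4 probe lies below it at day 1 (0.13) and above it at day 2 (0.19). Both lie far above it at days 4, 7 and 14.

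The other named probes are given beside these values. The median size of the log2 ratio over the other 328 named probes was 0.46 in tumor 2 of day 7, against 0.26, 0.31 and 0.25 in tumors 1, 3 and 4 of that day and 0.70 and 0.83 in the tumors of day 14. The mean of the 19 measured estrogen-induced genes was -1.08 in tumor 2 of day 7, against -0.23, -0.47 and -0.77 in the others of that day and -0.98 and -1.45 in those of day 14. The part of either in the values of IGFBP4 and IGFBP5 was not tested. Without tumor 2 the day 7 mean of IGFBP5 was 0.81 (adjusted p = 0.345). Over the 16 tumors the median size had a correlation of 0.66 with IGFBP5 and -0.56 with IGFBP4, given as a description since tumors share mice, days and the pool.

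Where a mouse carried 2 tumors, its flanks could be compared. Both flanks of the first day 1 mouse had -2.33 and -2.31 for IGFBP4 and 1.22 and 0.82 for IGFBP5, and those of the second had -2.21 and -2.11 for IGFBP4 and 0.25 and -0.07 for IGFBP5. The IGFBP5 values of day 1 thus lay 0.39 and 0.32 apart within a mouse and between 0.58 and 1.29 apart between the mice. For IGFBP4 at day 7 the flanks of 1 mouse lay 0.19 apart and tumors of different mice between 0.96 and 2.94. At day 4 this did not hold: the flanks differed by 0.77 in IGFBP4, within the range of 0.07 to 1.70 between mice. For IGFBP5 at day 7 the flanks lay 0.79 apart, also within the range between mice (0.17 to 2.97). With 4 such mice, no test was made.

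**Figure D3:**
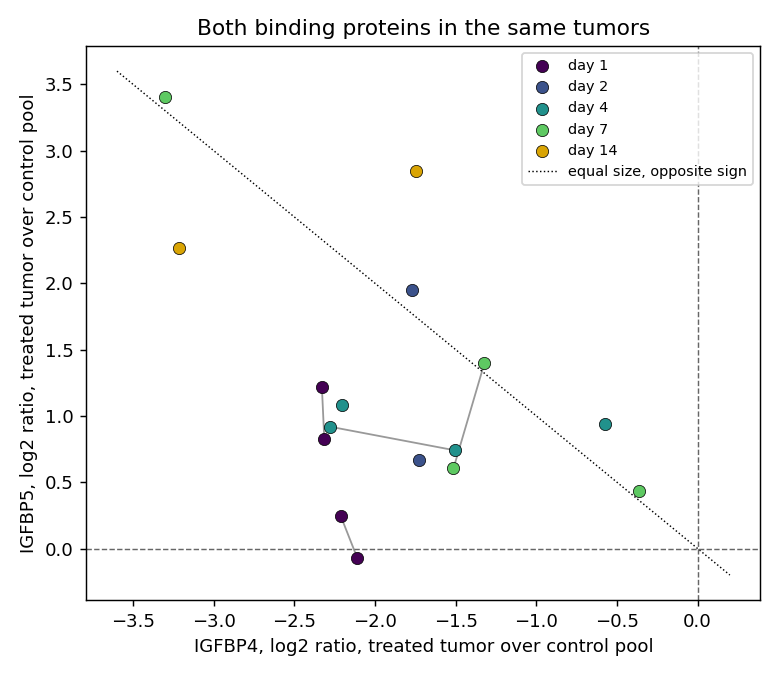
IGFBP4 (horizontal axis) against IGFBP5 (vertical axis), both as the log2 ratio of treated tumor over control pool, with 1 point per tumor coloured by day. Grey lines join the flanks of 1 mouse and the dotted line marks equal moves in opposite directions. Of the 16 tumors 15 lie at IGFBP4 below 0 and IGFBP5 above 0, and the tumors of day 1 lie below the dotted line.

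The distance between both genes within a tumor ranged from 0.79 (tumor 1 of day 7) to 6.71 (tumor 2 of day 7) on the log2 scale. Over the 12 mice, lower IGFBP4 went with higher IGFBP5, but the relation did not pass (Pearson r = -0.56, permutation p = 0.0588; Spearman rho = -0.53, permutation p = 0.0804; adjusted p = 0.121 for both, over 3 tests). With the day means removed, r was -0.65 (exact permutation within days, 288 arrangements, p = 0.226). Without the 2 mice farthest from the median of IGFBP4, both of day 7 (-0.36 and -3.30), r was -0.23 over 10 mice (permutation p = 0.505). Leaving them out also narrows the range of IGFBP4. Over the 16 tumors r was -0.46, and 638 of 9907 probes, 51 of the other 328 named ones among them, had a lower r with IGFBP4.

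The probes of a gene gave like values. Over the 16 tumors, both IGFBP4 probes correlated at 0.992 and differed by at most 0.18, with a median of 0.07. The IGFBP5 probes correlated at 0.932 to 0.986, and the largest gap between them was 0.73, in tumor 2 of day 4, where they gave 0.92, 1.55 and 0.82. All 5 probes were above background, with a lowest signal over background of 2.27 in either channel. The brightest IGFBP5 spot, of 324253_A in tumor 2 of day 7, reached 62032 intensity units on the dye-swap array.

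The forward arrays gave higher ratios than the dye swaps of the same tumors. For IGFBP4 probe 273587_A the gap was 0.48 on average, above 0 in 15 of 15 tumors, and the dye term of a model on single arrays was 0.27 ± 0.11 (SE, adjusted p = 0.0394). For IGFBP5 probe 297980_A the gap was 0.92, above 0 in 14 of 15 tumors (dye term 0.44 ± 0.12, adjusted p = 0.0022). The dye term of 324253_A, 0.19 ± 0.12, and that of 45542_A, 0.13 ± 0.10, did not pass (adjusted p = 0.185 and 0.322). Averaging the orientations cancels the term except in tumor 3 of day 4, whose IGFBP4 value of -0.57 rests on the forward array.

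**Figure D4:**
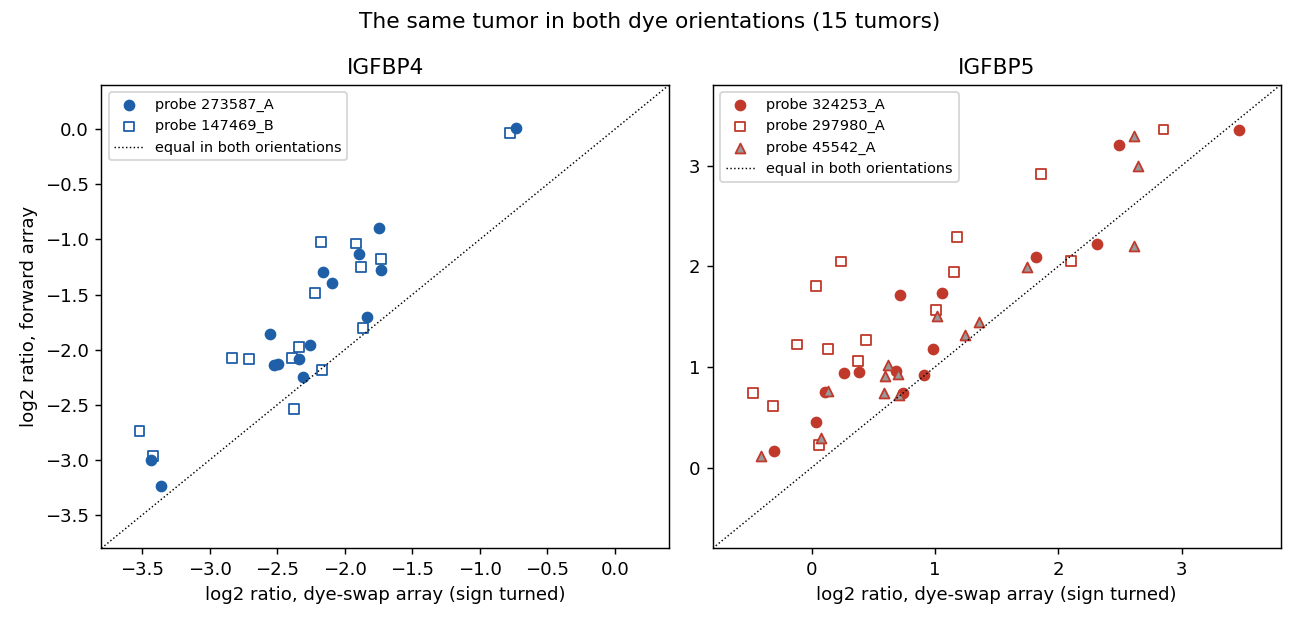
Log2 ratio of treated tumor over control pool on the forward array (vertical axis) against that on the dye-swap array with its sign turned (horizontal axis), for 15 tumors and each probe of IGFBP4 (left) and IGFBP5 (right). The dotted line marks equal values. Nearly all points lie above the line, and those of IGFBP5 probe 297980_A lie farthest from it, by 0.92 on average.

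Among the 251 other symbols of the study's list, those most like each gene over the 16 tumors were ranked by Pearson r, as a description. Most like IGFBP4 were SERPINA6 (r = 0.85), which encodes corticosteroid-binding globulin, CD59 (0.84), an inhibitor of the complement membrane attack complex, MAT1A (0.75), a methionine adenosyltransferase, OLFM1 (0.74), a secreted glycoprotein, and MGLL (0.73), a monoglyceride lipase. SERPINA6 had successive day means of -1.52, -1.70, -1.44, -1.68 and -2.56. Most opposed to IGFBP4 were SERHL (-0.77), BAMBI (-0.76), a decoy receptor for TGF-β family ligands, and DUSP4 (-0.70), a phosphatase of MAP kinases. SERHL reached 2.04 at day 14.

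Most like IGFBP5 were PHF16 (r = 0.83), ATP9A (0.78), a flippase of membrane lipids, ABCC5 (0.75), an efflux pump, LPIN2 (0.74), a phosphatidate phosphatase, and C10orf45 (0.74). All 5 had their highest mean at day 14, from 0.54 for PHF16 to 1.36 for ABCC5, below the 2.56 of IGFBP5. Most opposed were TFF3 (-0.83), an estrogen-induced trefoil peptide, S100A10 (-0.80), a partner of annexin A2, and ME1 (-0.80), the cytosolic malic enzyme. TFF3 went from -0.78 at day 1 to -1.94 at day 14. The arrays, the pool and the scaling of each tumor are shared by all these genes.

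Of 33 genes of the insulin-like growth factor axis, 7 had a named probe: both binding proteins, IGFBP7, STC1, IGF1R, IRS1 and GRB7. Leaving out IGFBP4 and IGFBP5, the other 5 gave 1 call, higher, at day 1 (2.77% of all probes called higher), none at days 2, 4 and 7 and 4 at day 14, of which 2 were lower (2.95% of all probes) and 2 higher (3.32%). Their median log2 ratio was 0.06 at day 1 and 0.70 at day 14, beside medians of -0.0055 and 0.00019 over all probes, and they lay on both sides of 0. All 5 were in the study's list of changed genes, so that nothing is read from these shares and medians.

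IGFBP7, a binding protein of low affinity for insulin-like growth factors, was not called on any day. Its day means ran from -0.35 ± 0.78 (SD, n = 4) at day 1 to 0.72 ± 0.49 (n = 2, adjusted p = 0.163) at day 14. STC1, a stanniocalcin that inhibits the protease of IGFBP4, was above the pool on every day, from 0.80 ± 0.43 (n = 4, adjusted p = 0.0536) at day 1 to 1.17 ± 0.65 (n = 2, adjusted p = 0.0414) at day 14, where it was called.

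On the receiving side, IGF1R lay at -0.17 ± 0.17 (SD, n = 4) at day 1 and at -0.72 ± 0.31 (n = 2, adjusted p = 0.0186) at day 14, and IRS1 at 0.06 ± 0.14 (n = 4) and -0.65 ± 0.17 (n = 2, adjusted p = 0.0125). Both were called lower at day 14 and not on days 1, 2, 4 and 7, where their adjusted p was 0.495 or more, and IGFBP4 was called at day 1. GRB7, an adaptor that binds activated growth factor receptors, was called higher at day 1 (0.43 ± 0.24, n = 4, adjusted p = 0.0246) and at day 14 (0.70 ± 0.06, n = 2, adjusted p = 0.0087).

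**Figure D5:**
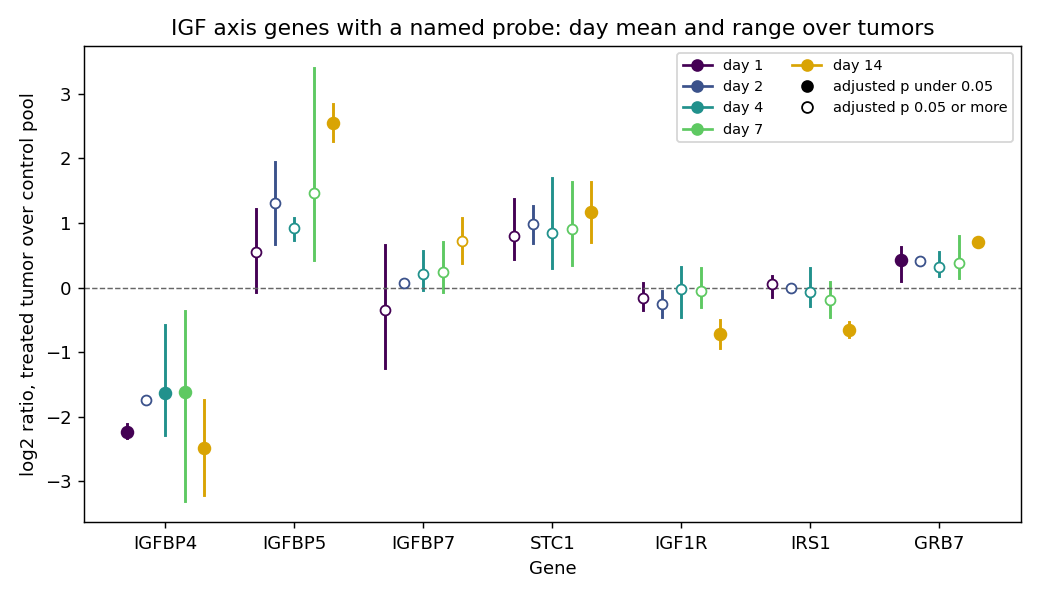
Log2 ratio of treated tumor over control pool (vertical axis) for the 7 genes of the insulin-like growth factor axis with a named probe (horizontal axis), by day in colour. Points are day means, vertical lines run from the lowest to the highest tumor, and filled points had an adjusted p under 0.05 in limma. IGFBP4 was called lower on 4 days, while IGFBP5 was called at day 14.

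Genes listed as markers of other cells were checked beside these values. As the tumor cells are human and the host cells are of the mouse, the source of a marker's signal is not known. Only genes in the study's list of changed genes have a name here, so that the markers measured were chosen for changing. Of 21 fibroblast and matrix markers 4 were measured (FN1, LGALS1, MGP and MYLK). Their mean log2 ratio per tumor lay between -0.20 and -0.10 at day 1, between -0.19 and -0.06 at day 7 and between -0.62 and -0.22 at day 14, when 3 were called lower (2.95% of all probes) and 1 higher (3.32%). Of 12 listed erythroid symbols, HBG1 was measured alone, and HBZ, HBA1, HBA2 and HBQ1 shared 1 entry. Neither of these 2 entries was called. Their mean lay between -1.16 and -0.48 at day 1, -1.68 and -0.27 at day 2, -2.08 and -0.64 at day 4, -0.53 and 1.15 at day 7 and -1.38 and -0.66 at day 14, below the pool in every tumor but 2 of day 7. No gene of the endothelium list (11 symbols) or of the macrophage and leukocyte list (11 symbols) had a named probe. Of the 4 luminal markers 1 was called lower (3.4% of all probes) and 1 higher (2.77%) at day 1, when their values ran from -0.69 to 0.88. At day 14, 3 were called higher (3.32%), and the mean of the 4 was 0.77 in tumor 1 and 0.95 in tumor 2. The part of host cells in the levels of IGFBP4 and IGFBP5 was not tested.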

How the data were processed

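Ratios of 16 treated tumors to 1 control pool came from 32 cDNA arrays with 2 colours each. The deposited scanner files give the intensity of each spot and of its local background per channel, uncorrected. The log2 ratios of the authors' value table were, by the study's methods and per the labels, computed in limma (version not given in the sources used here) after background correction, with loess and quantile steps. It holds 9928 probes (665 missing values, column medians between -0.0083 and 0.01136). Its columns correlated at 0.217 to 0.994 (Pearson r across probes) with the ratios made here, and its scale and centring are otherwise unknown. It served as an alternative.

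Here, R 4.3.3, limma 3.58.1 and statmod 1.5.0 were used. Spots marked 0, of which an array had between 1 and 393 and whose meaning is not stated, were dropped. Background correction was normexp (offset 50), followed by loess on each array and quantile scaling across arrays. Ratios (channel 2 over channel 1 on forward arrays, turned on dye swaps) were averaged per tumor. lmFit with a mean for each day, the mouse as a random block (duplicateCorrelation, 0.0334) and eBayes gave all adjusted p of probes, by Benjamini-Hochberg over all probes of a comparison. The fit gave each probe 1 spread for all days. As the pool is a single sample, no test holds its spread. The number of tumors limits the precision.

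Trends and correlations used means per mouse and permutation in Python 3.11.15 (numpy 2.4.6, scipy 1.17.1, pandas 2.3.3). The code was tested on simulated data. Names come from the study's list of 333 probes and 253 symbols. The brightest probe stands for a gene. Named genes were the members, the measured genes of the insulin-like growth factor axis list, and the 5 most and 3 least like each member. The members and lists were chosen with earlier results of these data known. Alternatives covered background, normalization, marks, dim probes, the mouse, the replicate number, the dye term, array weights, the other probes, the authors' table, the left-out array and each tumor left out in turn.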

Additional observations from a re-analysis of the deposited data

Results flagged for a closer look

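At day 4, tumor 4 stood apart from the other 3 tumors by IGFBP5 probe 45542_A, with a log2 ratio of 1.40 against 0.71, 0.82 and 0.75. Its gap to the nearest tumor made up 0.851 of the range of the group, above Dixon's critical value for 4 samples. By the brightest IGFBP5 probe the same tumor had 1.08 against 0.74 to 0.94, and by the third probe 0.85, within the 0.72 to 1.55 of the others. Of the 15 groups of a probe and a day with 4 tumors this was the 1 set apart, and chance sets apart about 1 in 20.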

How the results depend on the processing

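All alternatives kept IGFBP4 below and IGFBP5 above the pool on every day mean. IGFBP4 lost its call with 1 mean per mouse at day 1 (-2.24, adjusted p = 0.132), day 4 (-1.56) and day 7 (-1.69), with the left-out array used as labelled at day 4 (-1.25) and day 7 (-1.64), and at day 7 with the authors' table (-1.26) and with the tumors of that day alone (-1.62). The column of that table for the forward array of tumor 4 of day 7 correlated with the scanner ratios at 0.217 over all probes and -0.186 over the named ones. With arrays as units and a dye term it was also called at day 2 (-1.75), as IGFBP5 was at day 2 (1.31), day 7 (1.46) and for day 14 against the earlier days (1.50). IGFBP5 was also called at day 4 with the tumors of that day alone (0.92), and at day 7 with plain background subtraction (1.47), no background correction (1.42), no normalization between arrays (1.41), the dimmest probes left out (1.46) and array weights (1.36).

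Leaving out 1 tumor at a time, the IGFBP4 means ranged from -2.29 to -2.22 at day 1, -1.77 to -1.73 at day 2, -1.99 to -1.43 at day 4, -2.07 to -1.06 at day 7 and -3.21 to -1.74 at day 14, and those of IGFBP5 from 0.35 to 0.77, 0.67 to 1.95, 0.86 to 0.98, 0.81 to 1.83 and 2.26 to 2.85. The day 4 call of IGFBP4 was lost without tumor 2 of day 1 and tumors 1, 2 or 4 of day 4 (adjusted p up to 0.153), its day 7 call without tumors 1, 2 or 3 of day 1, tumor 1 of day 4 and tumors 2, 3 or 4 of day 7 (up to 0.274), and its day 14 call without tumor 2 of day 14. Without tumor 2 of day 7, IGFBP4 was called at day 2 (-1.75), and IGFBP5 at day 2 (1.31), day 4 (0.92) and for day 14 against the earlier days (1.66). Without tumor 1 of day 7, IGFBP5 was called at day 7 (1.83).

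Differences between days changed sign where they were near 0. For IGFBP4 day 4 minus day 2 (0.11 as reported) came to -0.050 with the authors' table and -0.067 with a dye term (-0.24 to 0.32 with 1 tumor left out), and day 7 minus day 4 (0.01) to -0.0058 with plain subtraction, -0.14 with 1 mean per mouse and -0.39 with the left-out array used as labelled (-0.43 to 0.58). IGFBP4 day 14 against the earlier days ranged from -1.40 to 0.068, IGFBP5 day 4 minus day 2 from -1.03 to 0.25, day 7 minus day 4 from -0.12 to 0.91, and day 14 against the earlier days from 1.20 to 1.78. The trend with day had r of 0.077 for IGFBP4, 0.57 for IGFBP5 and 0.66 for their sum with each tumor as a unit, the last 2 passing, and ranged from -0.18 to 0.21, 0.46 to 0.67 and 0.48 to 0.76 with 1 tumor left out. The sum passed without tumor 2 of day 2 (0.71) or tumor 2 of day 14 (0.76), and IGFBP5 without tumor 2 of day 2 (0.64). The correlation of both genes passed with the left-out array used as labelled (r = -0.63, rho = -0.63). With 1 tumor left out it ranged from -0.66 to -0.36 (rho from -0.64 to -0.39, and with day means removed r from -0.78 to -0.014), and it passed without tumor 1 of day 14. Calls were also counted over all 7 measured axis genes, IGFBP4 and IGFBP5 included. At day 1 they went from 1 to 2 higher with no background correction (471 of 9912 probes) and with the authors' table (677 of 9908). At day 7 they went from 0 to 1 higher with no background correction (50 of 9912). The lower call of day 7, that of IGFBP4, was lost with the authors' table (0 of 9908). At day 14 that table gave 2 in place of 3 higher (486 of 9908). IGFBP5 was among the 3 and kept its call with that table (2.60, adjusted p = 0.0027 in limma). The cause of these changes was not tested.

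Replicate numbers of the labels only name tumors and do not pair them between days, since tumors of a number come from different mice. The deviations of same-numbered tumors from their day means correlated at -0.18 to 0.19 across probes, and 6 of 15 tumors were closest to their own number. With the replicate number as a block, the means against the pool were -2.39, -1.65, -1.60, -1.78 and -2.39 for IGFBP4 and 0.65, 1.02, 0.69, 1.55 and 2.27 for IGFBP5. The block added the IGFBP5 call of day 7 (1.55, adjusted p = 0.0492), and IGFBP4 day 7 minus day 4 came to -0.18. It changed no other call of these genes, and over all probes it moved the calls against the pool (81 to 14 on day 2, 75 to 168 on day 4, 621 to 330 on day 14). Calls across all probes depended strongly on the setting: between 25 and 1566 probes were called at day 1 and between 31 and 1412 at day 14.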

Other observations

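The dye-swap array left out at day 4, titled replicate 4, has values of its own. With the sign of a dye swap, as its label has it, it gave 2.28 and 2.51 for the IGFBP4 probes 273587_A and 147469_B, and -0.90, -1.93 and -0.88 for the IGFBP5 probes 324253_A, 297980_A and 45542_A, which would make it an array with IGFBP4 above and IGFBP5 below the pool. With the sign of a forward array the values are -2.28, -2.51, 0.90, 1.93 and 0.88. The forward array of tumor 2 of day 4, whose scanned ratios it follows, gave -2.25, -2.53, 0.92, 1.94 and 0.93 for the same probes. The forward array titled replicate 3, which carries the same tumor in its RNA label, gave -0.57, -0.59, 0.94, 0.97 and 0.75.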
